A study of Mus musculus with 8 samples.

Results

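The genes described here build and run mitosis: 42 genes of the kinetochore, the spindle and its checkpoint, the mitotic kinases, condensin and the machinery of cytokinesis, of 18194 genes with a probe set of their own on the array. Every probe set whose single platform gene symbol is one of the 42 was taken, 101 of 45101 probe sets. A gene's value is that of the probe set with the highest mean signal over all arrays (its brightest), and the remaining probe sets are described afterwards. On a filter that kept probe sets with a mean signal over all arrays at or above the 40th percentile, 41 of the 42 genes were kept, of 13441 genes in all. The exception was Kif15, a spindle motor, with signals of 202 and 181 in the E14.5 control, 173 and 187 in the E14.5 mutant, 157 and 164 in the E18.5 control and 176 and 162 in the E18.5 mutant.

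RNA of whole mouse kidneys, of both sexes and on a mixed 129, C57BL/6 and SJL/J background, was hybridised to 8 arrays of the Affymetrix Mouse Genome 430 2.0 type. There were 4 pools, with kidneys of 23 control embryos at E14.5, 17 mutant embryos at E14.5, 14 control embryos at E18.5 and 9 mutant embryos at E18.5. Control embryos were Lim1flox/+; Rarb2Cretg/+ and mutant embryos Lim1flox/lacZ; Rarb2Cretg/+, so that every embryo carried the Cre transgene and 1 floxed Lim1 allele, and the mutants carried in addition a lacZ null allele in all cells. Lim1 (Lhx1) encodes a transcription factor required for nephron formation, the Rarb2 promoter drives Cre in the metanephric mesenchyme, and the ureteric bud of the mutants keeps 1 floxed allele. The arrays of a pool are duplicate target preparations of 1 RNA, so their spread is technical. With a single RNA pool behind each condition, pairs of conditions were compared without p-values. Error is given for ratios as the range over the 4 pairings of single arrays.

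In mitosis condensin compacts the chromosomes, kinetochores bind them to spindle microtubules, the checkpoint holds the cell until every kinetochore is attached, and the anaphase-promoting complex then releases the sister chromatids before the cleavage furrow parts the daughter cells. Transcripts of most of these genes accumulate only as a cell approaches division, and their level in a tissue is widely used as a readout of how many of its cells are cycling. In the embryonic kidney the nephron progenitors and the tips of the ureteric bud divide actively, while differentiated tubules divide less. In whole-kidney RNA, fewer cells of a type and less RNA per cell cannot be told apart.

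The promoters of many mitotic genes are known to share a pair of short elements, a CCAAT box and a cell cycle genes homology region (CHR). They were looked for in the RefSeq windows of 250 bases before to 50 bases after each annotated gene start (GRCm38.p6), on both strands, as TTTGAA or TTCGAA for the CHR (the latter reads alike on both strands) and as CCAAT for the CCAAT box. Of the 42 genes, 37 had a window, and Aurkb, Incenp, Tpx2, Kif20a and Smc4 had none. To show where the motifs lie, the last 150 bases of the window are printed for 5 genes that hold both, with both motifs in capitals (TTCAAA and ATTGG are the same motifs on the other strand), and for Birc5, in which neither was found. The first 5 are printed by role: chromosomal passenger complex (Cdca8), spindle motor (Kif11), mitotic kinase (Plk1), and central spindle and cytokinesis (Kif23 and Gas2l3).
Cdca8: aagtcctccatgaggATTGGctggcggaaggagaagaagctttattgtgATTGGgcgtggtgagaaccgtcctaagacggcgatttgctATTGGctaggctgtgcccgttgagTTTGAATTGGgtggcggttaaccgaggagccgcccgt
Kif11: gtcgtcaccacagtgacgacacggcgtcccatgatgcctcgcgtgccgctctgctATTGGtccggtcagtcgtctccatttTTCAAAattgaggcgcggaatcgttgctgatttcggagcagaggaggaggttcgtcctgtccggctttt
Plk1: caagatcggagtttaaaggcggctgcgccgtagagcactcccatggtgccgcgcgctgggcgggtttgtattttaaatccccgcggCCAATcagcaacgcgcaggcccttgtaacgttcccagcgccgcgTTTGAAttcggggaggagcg
Kif23: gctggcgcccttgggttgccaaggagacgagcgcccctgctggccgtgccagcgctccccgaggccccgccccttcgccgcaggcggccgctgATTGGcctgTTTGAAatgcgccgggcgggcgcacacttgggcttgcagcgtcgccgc
Gas2l3: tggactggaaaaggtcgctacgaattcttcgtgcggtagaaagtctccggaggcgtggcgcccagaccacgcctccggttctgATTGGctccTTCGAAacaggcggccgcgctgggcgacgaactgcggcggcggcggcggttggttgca
Birc5: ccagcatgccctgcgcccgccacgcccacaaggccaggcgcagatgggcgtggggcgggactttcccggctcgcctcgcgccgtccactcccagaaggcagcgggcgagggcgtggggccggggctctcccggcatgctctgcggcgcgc
The stretches lie at chr4:124936868-124937017, minus strand (Cdca8), chr19:37376282-37376431, plus strand (Kif11), chr7:122159335-122159484, plus strand (Plk1), chr9:61946750-61946899, minus strand (Kif23), chr10:89443918-89444067, minus strand (Gas2l3) and chr11:117849137-117849286, plus strand (Birc5), and each ends 50 bases into the annotated transcript. In Cdca8 the CHR and a neighbouring CCAAT box overlap by 1 base.

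A CHR was found in the windows of 30 of the 37 genes (81.1%), against 21.7% of all 27025 genes with a window. A CCAAT box was found in 26 (70.3%, against 41.1%), and both in 25 (67.6%, against 8.61%). In the last 150 bases alone the CHR was found in 28 genes (75.7%, against 9.87%) and the CCAAT box in 22 (59.5%, against 26.3%). These are matches of letters, and not measured sites.

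**Figure D1:**
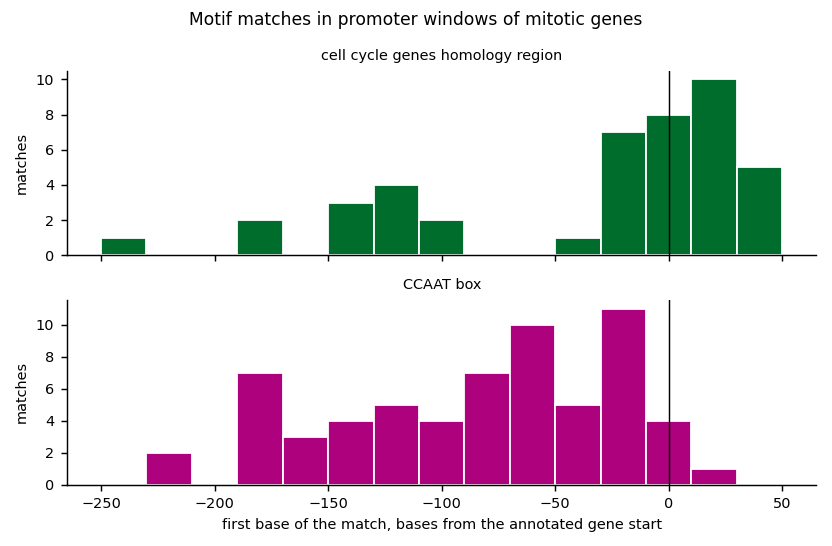
Position of every CHR match (upper panel) and CCAAT match (lower panel) in the promoter windows of the mitotic genes, in bins of 20 bases (x axis, bases from the annotated gene start, marked by the black line; y axis, number of matches). Most CHR matches lie within 50 bases of the start, and CCAAT matches spread over the upstream part of the window.

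The first question of the design was what changed between E14.5 and E18.5. In control kidneys 39 of the 41 mitotic genes had a ratio of E14.5 over E18.5 above 1, with a median ratio of 1.74-fold (median log2 ratio 0.80, range over pairings 0.59 to 0.93), while the median log2 ratio of all genes was -0.02. In all 39 both E14.5 arrays were above both E18.5 arrays, as they were in 28.5% of all genes, and no gene showed the reverse, which 37.2% of all genes did. At a ratio of 1.5 or more, above the fold between duplicates of either condition and with a mean signal times ratio above 100, 27 genes had the higher signal at E14.5 (4.97% of all genes) and 0 at the later stage (10.9%). At a ratio of 2 or more these criteria left 8 genes (1.60%), namely Smc4, Gas2l3, Cdca8, Kif20a, Cenpe, Kif23, Ncapd2 and Birc5, and 0 in the other direction (4.36%). The 2-fold count depends on a group of genes close to that ratio and was 14 without E14.5 control array 1.

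In mutant kidneys, which lack nephrons, the same set was again higher at the earlier stage. The median ratio was 1.68-fold (median log2 ratio 0.75, 0.61 to 0.90, all genes -0.03), 39 genes were above 1, and in 38 both E14.5 arrays were above both E18.5 arrays (25.4% of all genes). In 1 gene, Kif2c, both were below (30.2%). At 1.5-fold the earlier stage was higher in 27 genes (5.22%) and the later stage in 0 (3.99%), and at 2-fold in 6 (0.997%) and 0 (1.16%). The 6 were Smc4, Cdca8, Kif20a, Cenpe, Kif23 and Ncapg, and the 2-fold count was 3 without E18.5 mutant array 1 and 15 without E18.5 mutant array 2.

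The stage change common to both genotypes was tested in limma on the 4 pool means, with additive terms for stage and genotype and adjustment over all probe sets kept. It was positive and past an adjusted p of 0.05 in 26 of the 41 genes, against 4.02% of all genes, and negative in 0 (3.62%). At an unadjusted p below 0.05 it was positive in 35 (11.7% of all genes) and negative in 0 (14.7%). This leaves 1 residual degree of freedom, so any difference in stage change between the genotypes enters its error. The SE given for each gene is moderated toward a variance shared over all probe sets kept (3.91 prior degrees of freedom). Duplicates were averaged before the fit, so the gap between them does not enter the SE as such.

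**Figure D2:**
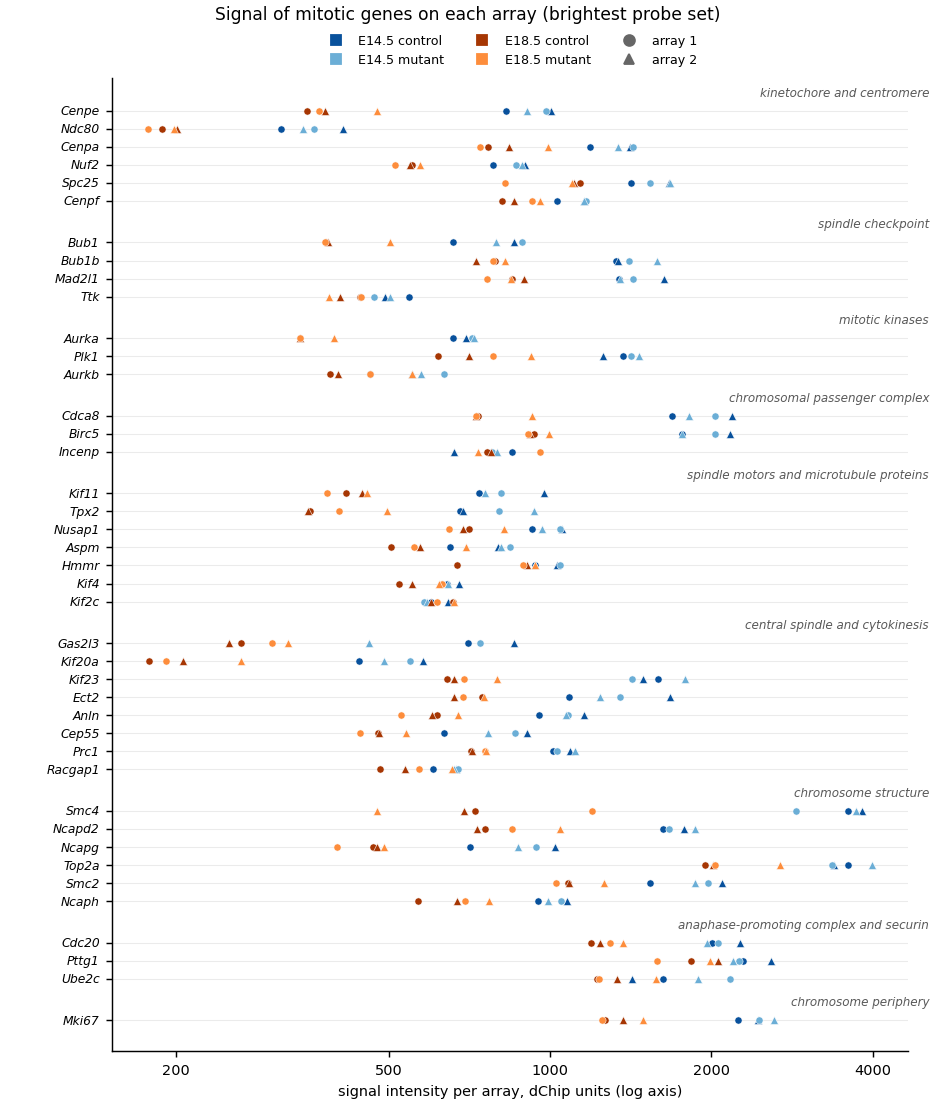
Signal on each of the 8 arrays (x axis, dChip units, log axis) for the 41 mitotic genes kept, by role (y axis; brightest probe set of each gene), with colours for the 4 pools and circles and triangles for arrays 1 and 2. The E14.5 arrays (blue) lie to the right of the E18.5 arrays (brown and orange) in most rows, controls and mutants of a stage largely overlap, and levels are not comparable between genes.

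Among the kinetochore and centromere genes, all 6 had ratios above 1 in both genotypes (median log2 ratio 0.65 in controls and 0.72 in mutants), and 4 of 6 passed the limma test. Cenpe, a kinesin that moves chromosomes from the kinetochore, had signals of 827 and 1004 in the E14.5 control, 983 and 904 in the E14.5 mutant, 350.4 and 379.6 in the E18.5 control and 370.2 and 473 in the E18.5 mutant. The ratio of E14.5 over E18.5 was 2.51-fold (2.18 to 2.86) in controls and 2.24-fold (1.91 to 2.66) in mutants, and the limma log2 difference was 1.24 ± 0.12 (SE, adjusted p = 0.0181). Both stages were clearly separated in both genotypes. Spc25, part of the NDC80 complex that grips microtubules, had 1418 and 1663 in the E14.5 control, 1536 and 1676 in the E14.5 mutant, 1135 and 1106 in the E18.5 control and 821 and 1099 in the E18.5 mutant, and its array values did not overlap between stages. Its limma difference, 0.60 ± 0.13 (SE, adjusted p = 0.0589), missed the threshold, with ratios of 1.37-fold in controls and 1.67-fold in mutants. The other members of that complex among the 42 passed, Ndc80 at 0.90 ± 0.11 (SE, adjusted p = 0.0227) and Nuf2 at 0.65 ± 0.11 (SE, adjusted p = 0.0386). Cenpf, a large kinetochore and nuclear matrix protein, was lowest in ratio of the group. Its signals were 1027 and 1153 in the E14.5 control, 1164 and 1158 in the E14.5 mutant, 812 and 855 in the E18.5 control and 922 and 955 in the E18.5 mutant, and its log2 difference was 0.35 ± 0.11 (SE, adjusted p = 0.133). Cenpa, the histone variant that marks centromeres, was called at 0.69 ± 0.11 (SE, adjusted p = 0.0343).

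Of the checkpoint genes 3 of 4 passed, and the median log2 ratio was 0.79 in controls and 0.84 in mutants. Mad2l1, which as MAD2 restrains the anaphase-promoting complex, had 1341 and 1630.2 in the E14.5 control, 1424 and 1349 in the E14.5 mutant, 848 and 891 in the E18.5 control and 761 and 844 in the E18.5 mutant, and its log2 difference was 0.78 ± 0.11 (SE, adjusted p = 0.0281). The kinase Bub1 had 657 and 855 in the E14.5 control, 885 and 792 in the E14.5 mutant, 380.1 and 384 in the E18.5 control and 379.9 and 501 in the E18.5 mutant, a ratio of 1.98-fold (1.71 to 2.25) in controls and 1.90-fold (1.58 to 2.33) in mutants, and a log2 difference of 0.96 ± 0.11 (SE, adjusted p = 0.0209). For both genes every E14.5 array was above every E18.5 array. Bub1b, the partner of Bub1, was called at 0.85 ± 0.11 (SE, adjusted p = 0.0245). Ttk, the MPS1 kinase that starts checkpoint signalling, had 544 and 490.0 in the E14.5 control, 467 and 501 in the E14.5 mutant, 442 and 405 in the E18.5 control and 443 and 386 in the E18.5 mutant, a narrow spread over the 4 pools, and did not pass, at 0.26 ± 0.11 (SE, adjusted p = 0.223). Its control stage log2 ratio was 0.29 by this probe set and 0.71 by the other kept probe set.

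By their brightest probe sets the mitotic kinases split in the same way. Plk1 had signals of 1365 and 1256 in the E14.5 control, 1417 and 1464 in the E14.5 mutant, 617 and 705 in the E18.5 control and 783 and 922 in the E18.5 mutant, with a log2 difference of 0.87 ± 0.12 (SE, adjusted p = 0.0270), and Aurka, which acts at spindle poles, had 658 and 697 in the E14.5 control, 712 and 721 in the E14.5 mutant, 339.9 and 341 in the E18.5 control and 340.0 and 393 in the E18.5 mutant, with 0.98 ± 0.11 (SE, adjusted p = 0.0203). The stage ratio in controls was 1.98-fold (1.78 to 2.21) for Plk1 and 1.99-fold (1.93 to 2.05) for Aurka, so both stood just under 2-fold. Aurkb, the kinase of the chromosomal passenger complex, had 460.0 and 552 in the E14.5 control, 632 and 574 in the E14.5 mutant, 387 and 401 in the E18.5 control and 460.0 and 550.4 in the E18.5 mutant. Its stage difference, 0.31 ± 0.11 (SE, adjusted p = 0.167), did not pass, and its mutant arrays were above the control arrays at both stages. The Aurkb reading depends on the probe set: the control stage log2 ratio was 0.36 by the brightest and 0.73 by the other kept probe set.

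In the chromosomal passenger complex, which corrects faulty attachments, Cdca8 (borealin) and Birc5 (survivin) passed and the scaffold Incenp did not. Cdca8 had 1684 and 2181 in the E14.5 control, 2030.5 and 1817 in the E14.5 mutant, 732 and 726 in the E18.5 control and 727 and 924 in the E18.5 mutant, a ratio of 2.65-fold (2.30 to 3.0) in controls and 2.33-fold (1.97 to 2.79) in mutants, and a log2 difference of 1.31 ± 0.12 (SE, adjusted p = 0.0181). Birc5 had 1760.2 and 2166 in the E14.5 control, 2029.5 and 1765 in the E14.5 mutant, 931 and 917 in the E18.5 control and 907 and 992 in the E18.5 mutant, with 1.04 ± 0.11 (SE, adjusted p = 0.0197). Incenp, at 848 and 661 in the E14.5 control, 778 and 796 in the E14.5 mutant, 762 and 774 in the E18.5 control and 955 and 733 in the E18.5 mutant, overlapped between stages in both genotypes, and its log2 difference was -0.06 ± 0.11 (SE, adjusted p = 0.766). The Incenp reading depends on the probe set, as given below for all probe sets.

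Read by brightest probe sets, spindle motors and microtubule proteins had the lowest called share among the larger groups: 2 of the 7 kept passed, and the median log2 ratio was 0.43 in controls and 0.40 in mutants. Over all kept probe sets the control stage log2 ratio ran from -0.01 to 1.10 for Kif2c, 0.43 to 0.92 for Aspm, 0.20 to 0.68 for Hmmr and 0.28 to 0.95 for Tpx2. The pair that passed were Kif11, the motor that pushes spindle poles apart, and Tpx2, which activates Aurka on spindle microtubules. Kif11 had 734 and 972 in the E14.5 control, 807 and 753 in the E14.5 mutant, 416 and 444 in the E18.5 control and 383 and 453 in the E18.5 mutant, with a log2 difference of 0.94 ± 0.11 (SE, adjusted p = 0.0217), and Tpx2 was called at 0.95 ± 0.11 (SE, adjusted p = 0.0209). Hmmr, a spindle pole adaptor, had 935 and 1029.5 in the E14.5 control, 1041 and 937 in the E14.5 mutant, 669 and 903 in the E18.5 control and 890.4 and 934 in the E18.5 mutant, with 0.22 ± 0.12 (SE, adjusted p = 0.310), and Kif2c, a kinesin that depolymerizes microtubules, had 599 and 645 in the E14.5 control, 582 and 587 in the E14.5 mutant, 658 and 597 in the E18.5 control and 614 and 661 in the E18.5 mutant, with -0.07 ± 0.11 (SE, adjusted p = 0.75). The Hmmr arrays did not overlap between stages, by a margin smaller than the gap between the E18.5 control duplicates, and those of Kif2c overlapped in controls. The others, Nusap1 (0.48), Aspm (0.42) and the chromokinesin Kif4 (0.16), had limma log2 differences above 0 at adjusted p of 0.0685, 0.0911 and 0.478.

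Central spindle and cytokinesis genes passed in 6 of 8, with a median log2 ratio of 0.89 in controls and 0.85 in mutants. Kif23, the motor subunit of centralspindlin, had 1588 and 1492 in the E14.5 control, 1423 and 1782 in the E14.5 mutant, 641 and 659 in the E18.5 control and 691 and 796 in the E18.5 mutant, a ratio of 2.37-fold (2.26 to 2.48) in controls and 2.16-fold (1.79 to 2.58) in mutants, and a log2 difference of 1.17 ± 0.12 (SE, adjusted p = 0.0181). Gas2l3, which links actin to microtubules at the midbody, had 701 and 855 in the E14.5 control, 739 and 459 in the E14.5 mutant, 264 and 250.5 in the E18.5 control and 302 and 323 in the E18.5 mutant. Its ratio was 3.03-fold (2.66 to 3.41) in controls and 1.92-fold (1.42 to 2.45) in mutants, the duplicates of the E14.5 mutant pool stood 1.61-fold apart, and its log2 difference was 1.24 ± 0.19 (SE, adjusted p = 0.0313), which missed the threshold without E14.5 mutant array 1 (1.07, adjusted p = 0.0943). Racgap1, the other subunit of centralspindlin, had 603 and 666 in the E14.5 control, 671 and 661 in the E14.5 mutant, 481 and 535 in the E18.5 control and 568 and 655 in the E18.5 mutant and did not pass, at 0.22 ± 0.12 (SE, adjusted p = 0.304). The remaining genes that passed were Kif20a (1.29), which carries the passenger complex to the midzone, the cleavage furrow regulator Ect2 (0.90), the furrow scaffold Anln (0.82) and the abscission factor Cep55 (0.70), with adjusted p from 0.0181 to 0.0342. Prc1, which bundles midzone microtubules, stood at 0.53 ± 0.11 (SE, adjusted p = 0.0571).

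Chromosome structure genes passed in 5 of 6 (median log2 ratio 0.85 in controls and 0.82 in mutants). The condensin ATPase Smc4 had 3591 and 3829 in the E14.5 control, 2871 and 3721 in the E14.5 mutant, 723 and 690.1 in the E18.5 control and 1196 and 474 in the E18.5 mutant, the highest stage ratio of all 41 genes, 5.25-fold (4.97 to 5.55) in controls and 3.95-fold (2.40 to 7.85) in mutants, with a log2 difference of 2.25 ± 0.13 (SE, adjusted p = 0.0150). The duplicates of the E18.5 mutant pool were 2.52-fold apart for this probe set. Top2a, the topoisomerase that untangles sister chromatids, had 3604 and 3385 in the E14.5 control, 3357 and 3986 in the E14.5 mutant, 1949 and 2015 in the E18.5 control and 2033 and 2690.0 in the E18.5 mutant, with 0.73 ± 0.12 (SE, adjusted p = 0.0343). The condensin subunit Ncaph, lowest of the group, had 947 and 1076 in the E14.5 control, 1047 and 989 in the E14.5 mutant, 566 and 669 in the E18.5 control and 692 and 767 in the E18.5 mutant, with 0.60 ± 0.12 (SE, adjusted p = 0.0540), just short of the threshold. The other condensin subunits passed: Ncapd2 at 1.05, Ncapg at 0.94 and Smc2 at 0.74 on the log2 scale, with adjusted p of 0.0223, 0.0231 and 0.0301.

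Of the genes of mitotic exit 1 of 3 passed (median log2 ratio 0.32 in controls and 0.53 in mutants). Cdc20, the activator of the anaphase-promoting complex, had 2009 and 2261 in the E14.5 control, 2061 and 1961 in the E14.5 mutant, 1192 and 1239 in the E18.5 control and 1294 and 1366 in the E18.5 mutant, with 0.70 ± 0.12 (SE, adjusted p = 0.0377). Securin, encoded by Pttg1, had 2292 and 2581 in the E14.5 control, 2251 and 2192 in the E14.5 mutant, 1835 and 2056 in the E18.5 control and 1581 and 1986 in the E18.5 mutant, with 0.33 ± 0.11 (SE, adjusted p = 0.146). The ubiquitin carrier Ube2c had 1626 and 1424 in the E14.5 control, 2162 and 1888 in the E14.5 mutant, 1221 and 1330.4 in the E18.5 control and 1233 and 1574 in the E18.5 mutant, with 0.40 ± 0.13 (SE, adjusted p = 0.131). For both Pttg1 and Ube2c the stages did not overlap in either genotype, although the difference missed the threshold. Mki67, the proliferation marker that coats mitotic chromosomes, had 2239.8 and 2439 in the E14.5 control, 2457 and 2614 in the E14.5 mutant, 1267 and 1366 in the E18.5 control and 1247 and 1488 in the E18.5 mutant, a ratio of 1.78-fold (1.64 to 1.93) in controls and 1.85-fold (1.65 to 2.10) in mutants, and a log2 difference of 0.86 ± 0.11 (SE, adjusted p = 0.0239).

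**Figure D3:**
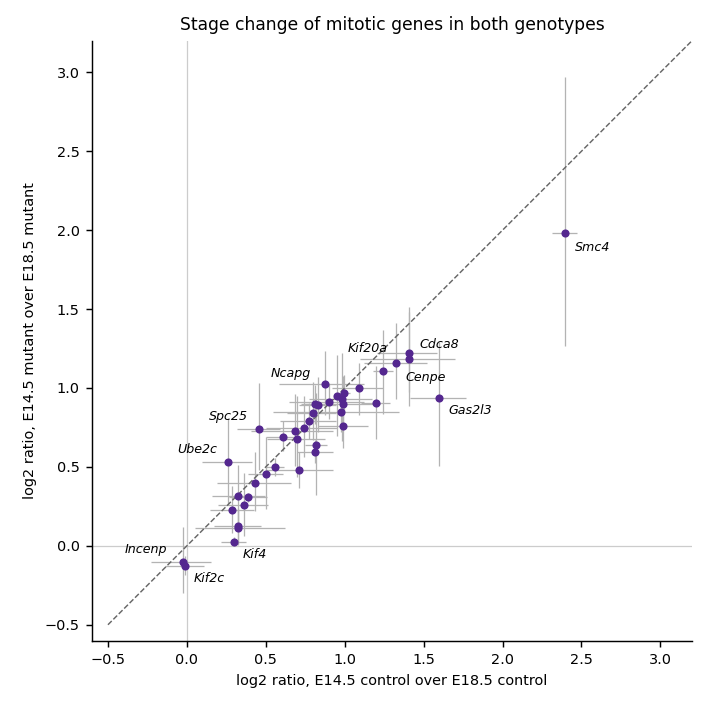
Log2 ratio of E14.5 over E18.5 in controls (x axis) against that in mutants (y axis) for the 41 mitotic genes. Points are ratios of pool means, grey bars the range over the 4 array pairings, and the dashed line marks equal ratios. Smc4 stands at 2.39 and 1.98, Incenp and Kif2c near 0, and Gas2l3 differs most between the genotypes.

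The ratios of the genotypes come from separate pools and can be set side by side. The stage log2 ratio was larger in controls than in mutants in 30 genes and smaller in 11, with a median difference of 0.08, against -0.01 over all genes, of which 48.2% had a positive difference. The same genes shifted together between duplicates of 1 RNA, by median log2 ratios of -0.18 in the E14.5 control and -0.24 in the E18.5 mutant. Those of the E14.5 mutant and E18.5 control were 0.06 and -0.02. A difference of 0.08 is thus smaller than the shift between duplicates in 2 of the 4 pools it uses. The difference kept 1 sign in all 16 combinations of single arrays in 3 genes, all larger in controls: Gas2l3 with 0.66 (0.12 to 1.27), Kif4 with 0.27 (0.16 to 0.38) and Cdc20 with 0.22 (0.03 to 0.40). Of all genes 10.1% did so in that direction, a larger share than 3 of 41. It kept the opposite sign in 0 (20.4% of all genes). No residual degree of freedom is left to test these differences.

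The second question was whether the mutants differ from controls. At E18.5 the 41 genes had a median log2 ratio of mutant over control of 0.13 (range over pairings -0.0035 to 0.22, all genes 0.03), with 32 above 0 and extremes of -0.22 (Spc25) and 0.37 (Plk1). None reached 1.5-fold in either direction, which 0.885% of all genes did upward and 5.07% downward (at 2-fold, 0.104% and 2.06%). Both mutant arrays were above both control arrays in 13 genes (23.4% of all genes), and below them in 2 (23.2%), Spc25 and Mad2l1. Plk1 was 1.29-fold (1.11 to 1.5), Aurkb 1.28-fold (1.15 to 1.42), Ncapd2 1.28-fold (1.12 to 1.43) and Tpx2 1.27-fold (1.14 to 1.40), all non-overlapping. At E14.5 the median was 0.06 (-0.08 to 0.15, all genes 0.03), with 28 above 0 and extremes of -0.38 (Gas2l3) and 0.41 (Ube2c). Again 0 reached 1.5-fold (0.387% of all genes upward, 0.432% downward, and at 2-fold 0% and 0.149%), 9 were non-overlapping upward (25.9%) and 2 downward (13.8%), Pttg1 and Kif2c. The E18.5 median was -0.0014 without E18.5 mutant array 2 and 0.21 without E18.5 mutant array 1. The E14.5 median was -0.06 without E14.5 control array 1 and 0.14 without E14.5 control array 2.

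The genotype difference common to both stages passed an adjusted p of 0.05 in limma in 0 of the 41 genes and in 0 of all genes. At an unadjusted p below 0.05 it was positive in 2 of the 41, Tpx2 at 0.34 ± 0.11 (SE, unadjusted p = 0.0304, adjusted p = 1.00) and Aurkb at 0.31 ± 0.11 (SE, unadjusted p = 0.0446, adjusted p = 1.00), and over all 13441 genes it was positive in 310 (2.31%) and negative in 238 (1.77%).

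**Figure D4:**
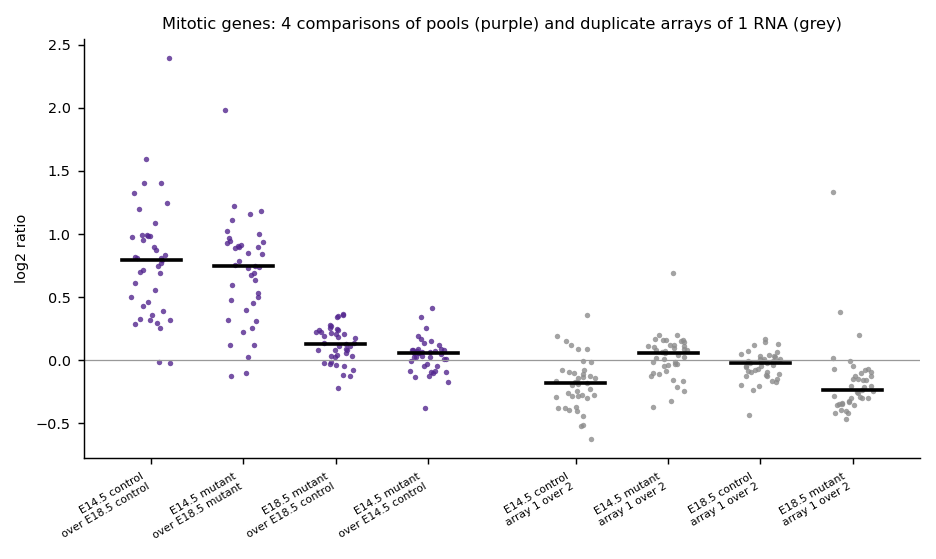
Log2 ratios (y axis) of the 41 mitotic genes in the 4 comparisons of pools (purple) and between array 1 and array 2 of each pool (grey), each point 1 gene and each black bar the median. The stage medians of 0.80 and 0.75 stand well above 0, and the genotype medians of 0.13 and 0.06 are of the size of the medians between duplicates, which run from -0.24 to 0.06.

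The duplicate arrays, which hold 1 RNA, set the scale for such small shifts. In the E14.5 control pool 35 of the 41 genes were higher on array 2, with a median log2 ratio of array 1 over array 2 of -0.18 (all genes -0.03). The E18.5 mutant pool showed the same, with 37 genes higher on array 2 and a median of -0.24 (all genes -0.04). The E14.5 mutant and E18.5 control pools had medians of 0.06 and -0.02. In 2 of the 4 pools the mitotic genes thus differed together between preparations of 1 RNA by more than their medians between genotypes, and in all 4 by less than their medians between stages.

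Probe sets that stood 1.5-fold or more apart between the E18.5 mutant arrays were marked by rule. Of the 101 member probe sets 8 did, all brighter on array 1, against the direction of most of the others, and 5 of the 8 were kept by the signal filter, of 81 kept in all. They read Cenpe, Gas2l3 (with 2 probe sets), Smc4 and Hmmr, and only that of Smc4 was the brightest of its gene. Of all 27061 kept probe sets 2.83% were marked, and of all 13441 genes 1.32% on their brightest probe set. Cenpe probe set 1439040_at had 496 and 595 in the E14.5 control, 303 and 356 in the E14.5 mutant, 50.1 and 41.4 in the E18.5 control and 126 and 62.9 in the E18.5 mutant. Gas2l3 probe set 1455980_a_at had 490.5 and 588 in the E14.5 control, 300.2 and 348 in the E14.5 mutant, 56.3 and 71.4 in the E18.5 control and 223 and 50.1 in the E18.5 mutant, and Gas2l3 probe set 1437244_at had 602 and 637 in the E14.5 control, 371 and 410.1 in the E14.5 mutant, 142 and 152 in the E18.5 control and 341 and 108 in the E18.5 mutant. For these 3 and for Smc4 probe set 1427275_at, E18.5 mutant array 1 was well above both E18.5 control arrays. On array 2 of that pool, Smc4 and both Gas2l3 probe sets were below both E18.5 control arrays, and Cenpe was above them. Hmmr probe set 1429871_at had 260.4 and 236 in the E14.5 control, 231 and 250.2 in the E14.5 mutant, 179 and 161 in the E18.5 control and 235 and 155 in the E18.5 mutant, a smaller gap. The 3 marked probe sets below the filter were Cenpf 1458447_at with 205 and 136 on the E18.5 mutant arrays, Smc2 1458479_at with 91.7 and 59.3, and Racgap1 1441889_x_at, near the bottom of the scale with 10.7 and 3.16.

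Their stage log2 ratios in controls had a median of 2.39, against 0.70 for the other 76 kept probe sets of mitotic genes. Their genotype log2 ratios at E14.5 had a median of -0.67, all 5 below 0, against 0.05. Neither of these ratios uses the E18.5 mutant arrays by which the probe sets were marked, but the signal filter used all 8 arrays. At E18.5, Cenpe 1439040_at and Gas2l3 1455980_a_at had mean signals of 45.8 and 63.8 in controls and 94.3 and 136 in mutants. All lie below the filter value of 187.7, so both were kept through their E14.5 signals, which favours a high stage ratio. Gas2l3 1437244_at and Hmmr 1429871_at had E18.5 control means of 147 and 170, also below that value, and E18.5 mutant means of 225 and 195. Their E14.5 means were higher, at 619 and 248 in controls and 391 and 241 in mutants, so the filter favoured a high stage ratio for them too. The contrast of stage medians with the other kept probe sets is therefore not independent of the filter. The 3 marked probe sets below the filter had control stage log2 ratios of 0.97 (Cenpf), 1.21 (Smc2) and -0.02 (Racgap1). The probe sets of 1 gene did not share stage ratios: Cenpe read 1.33 in the control stage comparison by its brightest probe set and 3.58 by 1439040_at, and Smc4 read 2.39 by 1427275_at and 0.74 and 1.23 by its other probe sets. Read by 1452197_at, Smc4 had 1881 and 2452 in the E14.5 control, 2208 and 2067 in the E14.5 mutant, 1312 and 1284 in the E18.5 control and 1153 and 1410.3 in the E18.5 mutant, and its limma log2 difference was 0.73 ± 0.11 (SE, adjusted p = 0.0305). Smc4 was thus called by either probe set, at a size that depended on which was read. Across the 81 kept probe sets the E18.5 mutant array gap and the control stage log2 ratio had r = 0.51, and r = -0.33 without the 5 marked ones. These probe sets share arrays and genes, and r is given as a description.

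**Figure D5:**
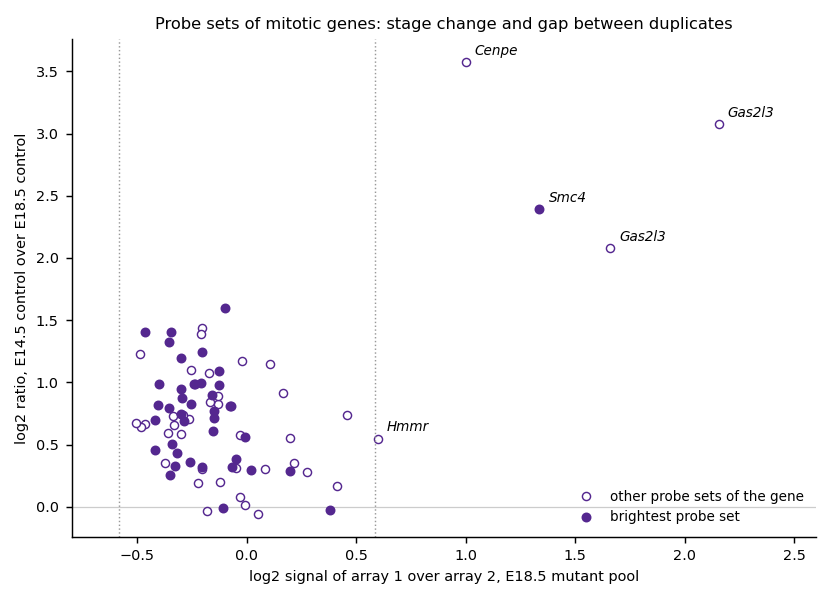
Log2 ratio of array 1 over array 2 in the E18.5 mutant pool (x axis) against the log2 ratio of E14.5 control over E18.5 control (y axis) for the 81 kept probe sets of mitotic genes, filled where brightest of the gene. Dotted lines mark 1.5-fold. The 5 probe sets to the right of them read Cenpe, Gas2l3, Smc4 and Hmmr, and 4 of the 5 hold the highest stage ratios of all 81.

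Reading every probe set changed individual genes more than the set. Of 24 genes with several kept probe sets, 7 had stage log2 ratios in controls that spread by more than 1, the median spread was 0.48, and in 4 genes the sign differed. Kif2c, at -0.01 by its brightest probe set, read 1.10 by 1437611_x_at, whose signals were 655 and 819 in the E14.5 control, 778 and 783 in the E14.5 mutant, 344 and 345 in the E18.5 control and 345 and 411 in the E18.5 mutant. Incenp, at -0.03 by its brightest, read 1.39 by 1439436_x_at, whose signals were 906 and 1396 in the E14.5 control, 1103 and 965 in the E14.5 mutant, 435 and 443 in the E18.5 control and 484 and 559.8 in the E18.5 mutant. Both of these genes, without a stage difference by the brightest probe set, therefore had a probe set on which the stages did not overlap, and limma called both of those probe sets (log2 differences of 1.07 and 1.17, adjusted p = 0.0187 and 0.0213). In the opposite direction, Ncapd2 read 1.20 by its brightest and 0.08 by 1430010_at. Counting a gene by any kept probe set, 33 genes passed 1.5-fold toward E14.5 in controls (8.88% of all genes counted the same way) and 14 passed 2-fold (3.63%). In mutants these counts were 30 (8.01%) and 8 (1.93%), and limma called 32 genes (6.76%). Between genotypes, Cenpe 1439040_at was 2.06-fold (1.25 to 3.03) at E18.5, the only call of its kind among these genes (1.58% of all genes at 1.5-fold and 0.208% at 2-fold), and at E14.5 it and both marked Gas2l3 probe sets were at least 1.5-fold lower in mutants (0.655% of all genes), while Cenpa 1444416_at was 1.60-fold (1.5 to 1.70) (0.625%). The E18.5 call of Cenpe 1439040_at rests on signals of 41.4 to 126, all below the filter value of 187.7. Its ratio barely exceeded the 2.00-fold gap between the E18.5 mutant duplicates. By its brightest probe set Cenpe was 1.16-fold (0.98 to 1.35) at E18.5, with overlapping arrays. Which transcript each of these probe sets matches was not examined here.

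Other cell cycle genes, from lists kept apart from the 42, placed these values in context. Of 99 other mitotic genes the median stage log2 ratio was 0.32 in controls and 0.32 in mutants, and limma called 28 higher and 2 lower at E14.5. The highest was Mxd3, a MYC-network repressor, with 832 and 1266 in the E14.5 control, 860.2 and 692 in the E14.5 mutant, 181 and 153 in the E18.5 control and 200.3 and 122 in the E18.5 mutant and a log2 difference of 2.46 ± 0.13 (SE, adjusted p = 0.0150), followed by Trip13 (1.27), Rock1 (1.19) and Cenph (1.04). The 2 lower ones were Cdc25b (-0.91) and Cenpb (-0.71). The log2 values in brackets after gene names, here and below in this paragraph, are limma differences over both genotypes and not control ratios. Of 42 DNA replication genes the medians were 0.49 and 0.55, with 17 called higher and 0 lower. Cdc6 (1.35), Rrm2 (1.30), Orc6 (1.24) and Rfc4 (1.04) led in control ratio, while Pola2 (-0.24, adjusted p = 0.254) and Rpa2 (-0.02, adjusted p = 0.926) had the lowest. Of 24 cyclins, inhibitors of cyclin-dependent kinases and their regulators the medians were 0.05 and -0.01, with 3 called higher and 1 lower. Ccne2 (1.38), Ccnd2 (1.08) and Cdk6 (0.62) were higher at E14.5, and Cdkn1a, which encodes the inhibitor p21, was lower (-1.21, adjusted p = 0.0223). Ccnd1 (0.61), E2f3 (0.48) and Rb1 (adjusted p = 0.0727) did not pass. The differences between these lists were not tested.

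Motif content and stage change were set side by side. Among members with a CHR in the last 150 bases of the window, 18 of 27 (66.7%) were called higher at E14.5, with a median control log2 ratio of 0.81, and without one 5 of 9 (55.6%) were, with 0.71. Of those with both motifs 11 of 20 (55%) were called, with 0.75, so that the share was no higher than in members without a CHR. Among other genes kept, 5.15% of the 719 with a CHR, 7.87% of the 267 with both motifs and 3.74% of the 10012 without a CHR were called higher.

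Lists of cell type markers differed in how they moved between the groups. Proximal tubule markers (6 of 6 kept) summed to 15682 to 16231 in the E18.5 control and to 610 to 1042 in all other pools, and Slc34a1, the phosphate transporter, had 142 and 144 in the E14.5 control, 61.4 and 71.3 in the E14.5 mutant, 5061 and 5027 in the E18.5 control and 85.2 and 73.8 in the E18.5 mutant. Nephron progenitor markers (5 of 6 kept) summed to 4088 to 4382 in the E14.5 control, 5478 to 5504 in the E14.5 mutant, 2675 to 2793 in the E18.5 control and 4450 to 5090 in the E18.5 mutant. By gene, 3 of the 5 were higher at E14.5 and 2 lower, in controls and in mutants. The median stage log2 ratio was 0.28 in controls (lowest -0.07) and 0.02 in mutants (lowest -0.51). All 5 were higher in mutants at both stages. Six2, which maintains nephron progenitors, was at 1716 and 1704 in the E14.5 control, 1988 and 2147 in the E14.5 mutant, 778 and 848 in the E18.5 control and 1312 and 1451 in the E18.5 mutant, so it was higher in mutants than in controls at both stages. Of the 3 stromal progenitor markers Foxd1 was higher at E14.5 (1.79 ± 0.13 (SE, adjusted p = 0.0150)), while Ntn1 and Hoxd11 had log2 ratios of -0.34 and -0.44 in controls and 0.28 and -0.20 in mutants. Summed erythroid markers were 8879 to 10346 at E14.5 and 1814 to 1897 at E18.5, which came from the embryonic globins Hbb-y (8.13 in control stage log2 ratio) and Hba-x (2.78), while Slc4a1, Epor, Klf1 and Alas2 stood between -0.29 and 0.07. Podocyte markers summed to 1468 to 1659 at E14.5, 3051 to 3168 in the E18.5 control and 1792 to 1814 in the E18.5 mutant. Ureteric tip (2080 to 2854), stromal progenitor (1554 to 2993), endothelial (2641 to 3927), macrophage (2075 to 3299) and adrenal markers (485 to 675) had these ranges over the 8 arrays. Markers of a list moved in both directions in some comparisons and in 1 direction in others. All 4 ureteric tip markers were higher in mutants at E18.5 without overlap (median log2 ratio 0.46), as 23.4% of all genes were. All 5 endothelial markers were lower at E14.5 in controls (median -0.44) and higher in mutants at E14.5 (median 0.17). The endothelial receptor Tie1 was lower at E14.5 (-1.62 ± 0.19 (SE, adjusted p = 0.0204)), and no marker of any list was at 0. The part of these cell types in the stage and genotype ratios of the mitotic genes was not tested.

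The targeted gene does not settle the labels by itself. Lhx1 probe set 1450428_at had 449 and 517 in the E14.5 control, 563 and 554 in the E14.5 mutant, 369.9 and 352 in the E18.5 control and 296 and 333 in the E18.5 mutant, and 1421951_at had 388 and 365 in the E14.5 control, 323 and 289.8 in the E14.5 mutant, 342 and 382 in the E18.5 control and 459 and 379 in the E18.5 mutant. The former was lower in mutants at E18.5 alone and the latter at E14.5 alone, and whether either matches the deleted part of the gene is not given in the sources used here. Log2 signals of duplicates correlated across probe sets with r = 0.980 to 0.990, array medians were 225.4 to 242.7, and the precision of all values is limited by there being 8 arrays. These medians of probe set signals are higher than the median intensities given for the normalized arrays in the study's methods. Whether those are medians of probe sets or of single probes is not stated there, so the scales could not be compared.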

How the data were processed

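Whole kidneys were pooled by stage and genotype after genotyping, and RNA of each of the 4 pools was labelled in duplicate for 8 arrays. The deposited values are linear signal intensities, which the authors computed per probe set in dChip and normalized to an invariant set. The raw probe intensities and present calls were not used here, and no column belongs to another series. Of 45101 probe sets, 34958 had 1 gene symbol, 932 several and 9211 none in the platform table, 34754 of them named through the gene identifier.

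Ratios were taken between means of duplicates. Present calls of the study's methods were replaced by the 40th percentile of the mean signal (187.7). Limma 3.58.1 (R 4.3.3) was fitted to the pool means of log2(signal + 1) for 27061 probe sets (3.91 prior degrees of freedom) with Benjamini-Hochberg adjustment. Work outside limma was done in Python 3.11.15, with matplotlib 3.10.9, pandas 2.3.3 and numpy 2.4.6. Simulated data served to check the criteria on ratios and the additive limma fit, and no other step. Named in full per array were, in each role, the gene of highest mean signal and those of highest and lowest control stage ratio, and each probe set 1.5-fold apart between the E18.5 mutant arrays. Of other lists the 4 highest and 2 lowest ratios were named, and genes named otherwise were chosen after their values were seen. Alternatives were all probe sets, quantile normalization, 50 added to each signal, no signal filter, geometric means, an intensity trend, the pool as a random block, and each array left out. The 42 genes, the lists and the rules were chosen with earlier results of these data known.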

Additional observations from a re-analysis of the deposited data

Results flagged for a closer look

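For 6 probe sets of mitotic genes, none of them the brightest of its gene, both mutant arrays lay on one side of both control arrays at E18.5 and on the other side at E14.5. Of the 81 kept probe sets of these genes that was 4 in one direction (4.94%, against 4.23% of all 27061 kept probe sets) and 2 in the other (2.47%, against 5.20%). The difference between the stages was not tested. In 4 of them the mutants were higher at E18.5 and lower at E14.5. The log2 ratio of mutant over control at E18.5 was 1.04 (range over pairings 0.33 to 1.60) for Cenpe 1439040_at, against -0.73 (-0.97 to -0.48) at E14.5. It was 0.25 (0.22 to 0.29) against -0.33 (-0.47 to -0.20) for Kif11 1452315_at, 0.26 (0.10 to 0.42) against -0.11 (-0.21 to -0.01) for Aspm 1452459_at, and 0.17 (0.03 to 0.31) against -0.29 (-0.49 to -0.08) for Kif2c 1432392_at. In the remaining pair the order was the reverse, with -0.24 (-0.31 to -0.17) against 0.19 (0.10 to 0.27) for Prc1 1423774_a_at and -0.07 (-0.14 to -0.01) against 0.14 (0.08 to 0.20) for Hmmr 1427541_x_at. The brightest probe sets of these genes showed no such reversal.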

How the results depend on the processing

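Median log2 ratios and counts of the mitotic genes kept their direction under every alternative run, except the genotype medians named below. At least 2-fold higher at E14.5 in controls were 14 genes with all probe sets and 14 after quantile normalization, and in mutants 8 with all probe sets. With all probe sets, Cenpe, on E18.5 signals below the filter value, was the 1 gene that passed 2-fold toward the E18.5 mutant, and 1 passed 1.5-fold, while 1 (Cenpa) passed 1.5-fold toward the E14.5 mutant and 2 (Cenpe and Gas2l3) toward the E14.5 control.

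Leaving out each array in turn gave, for E14.5 over E18.5 in controls, medians of 0.63 to 0.90 and counts of 8 to 14 at 2-fold and 23 to 29 at 1.5-fold, and in mutants medians of 0.64 to 0.90 and counts of 3 to 15 and 24 to 30. The E18.5 genotype median ran from -0.0014 to 0.21, with 0 to 1 genes at least 1.5-fold higher in mutants, and the E14.5 genotype median from -0.06 to 0.14, with 0 to 1 genes at least 1.5-fold higher in controls. Limma called 21 to 29 genes for stage and 0 for genotype. Cdc20, Cenpa, Cep55, Gas2l3, Nuf2, Smc2 and Top2a missed the threshold in at least 1 of these fits, and Cdc20 also after quantile normalization.

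The array numbers name technical duplicates, and the gaps between duplicates correlated between pools with r from -0.45 to 0.42, so that the numbers do not pair the arrays. With the array number as a replicate block and the pool as a random block, limma called 36 genes for stage and 0 for genotype, and 36 and 0 with the pool alone as a random block. The estimated correlation within pools was near 0 (0.02 and -0.04), so these fits take duplicates of 1 RNA almost as independent. Shares of all genes called were computed for the main settings and for genes counted by any kept probe set, and for no other alternative. The counts of 36, those after quantile normalization and all counts with an array left out therefore have no share beside them. They show how far the main counts depend on the processing and cannot be read as a result about these genes.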
